A study of Mus musculus with 4 samples.

Results

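Chemokine and chemoattractant receptors are the surface proteins with which a macrophage senses a chemical gradient. The genes described here are 9 receptors, chosen by name from the chemokine, complement peptide and formyl peptide families: Ccr1, Ccr2, Ccrl2, Cx3cr1, Cxcr4, C5ar1, C3ar1, Fpr1 and Fpr2. All 9 were found among the 24422 genes named in the tables, and each is represented by its RefSeq transcript with the highest mean read count. They were measured by sequencing of poly(A) RNA from RAW 264.7 cells, a mouse macrophage-like line. Of the 4 libraries, 2 came from cells stably expressing Dnm3os, a long noncoding RNA, and 2 from cells stably carrying the empty plasmid pcDNA 3.1(+). Both groups were grown with 5.5 mmol/L glucose and used between passages 3 and 6. Per the series title, the study concerns the function in macrophages of Dnm3os, which it describes as induced by diabetes. The labels give no sex, treatment or stimulus, and do not say whether each stable line was 1 clone or a pool, nor whether each library had its own culture.

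Most receptors of these families are G protein-coupled. A bound chemokine, complement fragment or formylated bacterial peptide makes the receptor release an inhibitory G protein, whose subunits activate phosphoinositide 3-kinase gamma, phospholipase C beta and Rac GTPases and so steer the cell. Arrestins, receptor kinases and RGS proteins then switch the signal off. On monocytes and macrophages Ccr2 is known for recruitment from blood, Ccr1 for responses to inflammatory chemokines, Cx3cr1 for patrolling and adhesion, and C5ar1 for the response to the complement fragment C5a.

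Of the 9 genes, 5 were higher in cells carrying Dnm3os and 0 were lower. Among the 7 tested, the formyl peptide receptor gene Fpr2 and the complement receptor gene C5ar1 showed the largest differences, and Ccr1, Ccr2 and Cx3cr1 rose by smaller factors. Ccrl2 had a similar estimate to Ccr1 and Ccr2 but did not pass the test, and C3ar1, the most abundant of the 9, differed little. Cxcr4 and Fpr1 had too few reads to be tested. By edgeR's quasi-likelihood test, with a Benjamini-Hochberg adjusted p under 0.05, 5 of 7 tested receptors were called higher, beside 6.51% of the 13172 genes tested. The median log2 fold change of those 7 was 0.74, against 0.00061 over all genes tested. Since the 9 genes were chosen with earlier results of these data known, the count and the median are given as a description. Fpr2 passed the filter on low counts through the Dnm3os libraries alone, so its place in that count and median was given by the filter. The other 6 had at least 10 counts in every library.

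For the 0 called lower, beside 5.75% of all genes tested, no receptor was lower by edgeR even at an unadjusted p of 0.05 (0 of 7), nor called lower by DESeq2 or limma-voom (0 each). CPM, the count scaled to the library's total, did not overlap between the groups for 6 of the 7, beside 51.2% of all genes tested. Fpr2 is among those 6, and its place there was given by the filter on low counts. In RNA from a whole culture, more cells of a kind and more RNA per cell cannot be told apart. The p-values measure the spread between these libraries, which may be technical.

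Summed counts with 1 transcript per gene were 29416272 and 34314038 in the Dnm3os libraries, and 39769640 and 35447766 in the empty vector libraries. Reads of Dnm3os itself numbered 208 and 260 in the Dnm3os libraries, against 0 in both empty vector libraries. Macrophage markers were abundant. Lyz2 alone had 8038 and 7578 CPM in Dnm3os libraries, and 7089 and 6940 CPM in empty vector libraries. It made up most of the markers' sum, which was 9418 to 9924 CPM with Dnm3os and 8553 to 8707 CPM with the empty vector. Of the 7 tested, 4 were higher, Itgam, Fcgr1, Csf1r and Lyz2, and 2 were lower, Adgre1 and Cd68, beside 6.51% higher and 5.75% lower over all genes tested; Mertk had 1 count in each group. Their part in the results on the receptors was not tested. Markers of other cell types were at or near 0. The 5 T cell markers summed to 0.175 to 0.272 CPM in Dnm3os libraries and 0.0502 to 0.255 CPM in empty vector libraries, the 5 B cell markers to at most 0.0292 CPM in Dnm3os libraries and 0.0752 CPM in empty vector libraries, and the 5 fibroblast markers to at most 0.0292 CPM in Dnm3os libraries and 0.0502 CPM in empty vector libraries. The 4 mast cell and basophil markers had 0 counts. Among 6 neutrophil markers, S100a8 accounted for nearly all of the 5.19 to 5.95 CPM in Dnm3os libraries and 4.27 to 4.54 CPM in empty vector libraries (adjusted p = 0.0920 by edgeR), while Ly6g, Mpo, S100a9 and Retnlg had 0 counts.

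**Figure D1:**
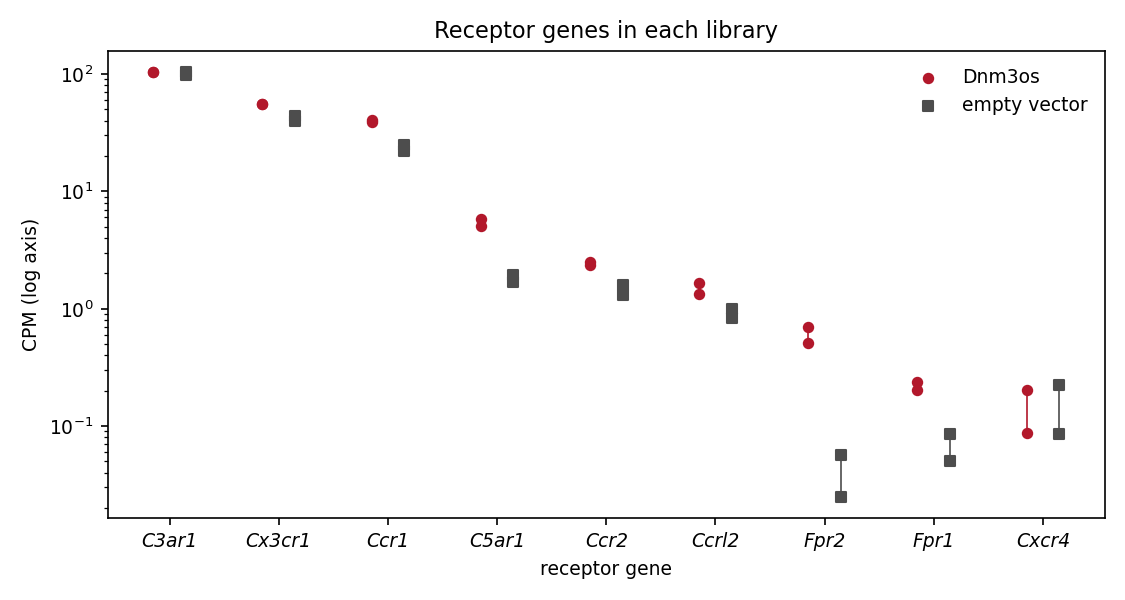
CPM (counts scaled to the library's total, log axis) of the 9 receptor genes in each of the 4 libraries, with Dnm3os libraries as circles left of empty vector libraries as squares and a line joining the 2 libraries of a group. The gap between the nearest points of the groups is widest for Fpr2 and C5ar1, while the groups overlap for C3ar1 and Cxcr4.

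Among receptors of CC chemokines, Ccr1 binds Ccl3, Ccl5 and other inflammatory chemokines. It had 40.3 and 38.7 CPM in the Dnm3os libraries, against 22.0 and 25.0 CPM in the empty vector libraries. Every Dnm3os value lay above every empty vector value, by more than the spread within either group. Ccr1 averaged 39.5 ± 1.12 CPM with Dnm3os and 23.5 ± 2.14 CPM with the empty vector (SD, n = 2 each), a 1.68-fold rise (log2 fold change 0.75 ± 0.06 SE; adjusted p = 1.82e-08 by edgeR). The size of the Ccr1 rise stayed between 0.65 and 0.84 on the log2 scale under 14 alternative settings, all of which called it.

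Ccr2, the receptor of the monocyte chemokine Ccl2, was much less abundant. Its counts were 74 and 81 in the Dnm3os libraries and 64 and 46 in the empty vector libraries, or 2.51 and 2.36 CPM against 1.60 and 1.30 CPM. The groups did not overlap, and Ccr2 rose 1.67-fold (0.74 ± 0.20 SE; adjusted p = 0.0172 by edgeR). The call held without empty vector library 1. It failed when empty vector library 2 was left out (adjusted p = 0.117 by edgeR), or Dnm3os library 1 (0.128), or Dnm3os library 2 (0.0967), and by DESeq2 (adjusted p = 0.243). Over the 14 alternatives its adjusted p ranged from 0.00607 to 0.243.

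Cx3cr1, the receptor of the membrane-bound chemokine fractalkine, had 55.4 and 55.2 CPM in the Dnm3os libraries, against 43.9 and 39.7 CPM in the empty vector libraries. The Dnm3os libraries were nearly alike and both stood above the empty vector libraries. The rise was 1.32-fold (0.40 ± 0.05 SE; adjusted p = 6.80e-06 by edgeR), the smallest of those called. Its log2 fold change ranged from 0.33 to 0.47 over the 14 alternatives, all of which called it.

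Ccrl2 is an atypical receptor that holds the chemoattractant chemerin at the cell surface without the usual G protein signal. It had 39 and 57 counts in the Dnm3os libraries, against 33 and 35 in the empty vector libraries, or 1.33 and 1.66 CPM against 0.828 and 0.991 CPM. The groups did not overlap, but the difference did not pass the test (0.73 ± 0.26 SE, 95% interval 0.20 to 1.26; adjusted p = 0.0694 by edgeR). It passed only with the counts of its 3 transcripts summed (adjusted p = 0.0215), and those transcripts hold overlapping counts.

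Cxcr4, the receptor of Cxcl12, was near the limit of detection, with 6 and 3 counts in the Dnm3os libraries and 9 and 3 in the empty vector libraries. The groups overlapped fully. The ratio of summed counts, scaled to library size, was 0.885 with a 95% exact counting interval of 0.329 to 2.29. These counts thus do not exclude ratios within that interval, in either direction. Such intervals cover counting error only.

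The complement peptide receptors differed from each other in response. C5ar1, the receptor of C5a, had 149 and 200 counts in the Dnm3os libraries, against 68 and 68 in the empty vector libraries. In CPM these were 5.06 and 5.83 with Dnm3os, against 1.71 and 1.92 with the empty vector. The lowest Dnm3os value was more than 2-fold above the highest empty vector value. C5ar1 averaged 5.45 ± 0.545 CPM with Dnm3os and 1.81 ± 0.155 CPM with the empty vector (SD, n = 2 each) and rose 3.01-fold (1.59 ± 0.16 SE; adjusted p = 1.02e-07 by edgeR). Only 1.25% of all genes tested were called higher with at least a 2-fold change. Its neighbour on chromosome 7, C5ar2, which also binds C5a, averaged 4.80 ± 0.104 CPM with Dnm3os and 5.33 ± 0.691 CPM with the empty vector and was not called (-0.15 ± 0.13 SE; adjusted p = 0.538 by edgeR).

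C3ar1, the receptor of the fragment C3a, had 104.2 and 103.4 CPM in the Dnm3os libraries, against 99.2 and 103.6 CPM in the empty vector libraries. The groups overlapped, and the log2 fold change of 0.034 ± 0.036 SE had a 95% interval of -0.041 to 0.11 (adjusted p = 0.657 by edgeR). A difference of the size seen for C5ar1, Ccr1 or Cx3cr1 lies outside that interval. Relative to transcript length, C5ar1 stood at 0.0823 and 0.0956 of the level of C3ar1 in the Dnm3os libraries, against 0.0291 and 0.0315 in the empty vector libraries.

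The formyl peptide receptors bind peptides that start with formylmethionine, as bacterial and mitochondrial proteins do, and Fpr2 also binds annexin A1 and serum amyloid A. Fpr2 had 15 and 24 counts in the Dnm3os libraries, against 1 and 2 in the empty vector libraries, or 0.510 and 0.700 CPM against 0.0251 and 0.0566 CPM. Nearly all reads of Fpr2 were thus in the Dnm3os libraries. The ratio of summed counts was 15.3, with a wide 95% exact counting interval of 4.88 to 77.6 (adjusted p = 0.000209 by edgeR). The fitted log2 fold change of 3.82 depended on which empty vector library was kept, at 4.42 with library 1 alone and 3.34 with library 2 alone. Since Fpr2 entered the test only through its Dnm3os libraries, its p and its call are given as a description. Under a filter at 1 CPM in 2 libraries it was not tested. Of the 50-base windows of the Fpr2 transcript, 37.2% also occur in other genes, most of them in Gm5966, so its reads are uncertain.

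Fpr1 had 7 and 7 counts in the Dnm3os libraries, against 2 and 3 in the empty vector libraries. The groups did not overlap, but the gene did not reach the filter. The ratio of summed counts was 3.31 with a 95% exact counting interval of 1.12 to 11.7. With no filter on low counts it was tested and not called (adjusted p = 0.291 by edgeR).

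**Figure D2:**
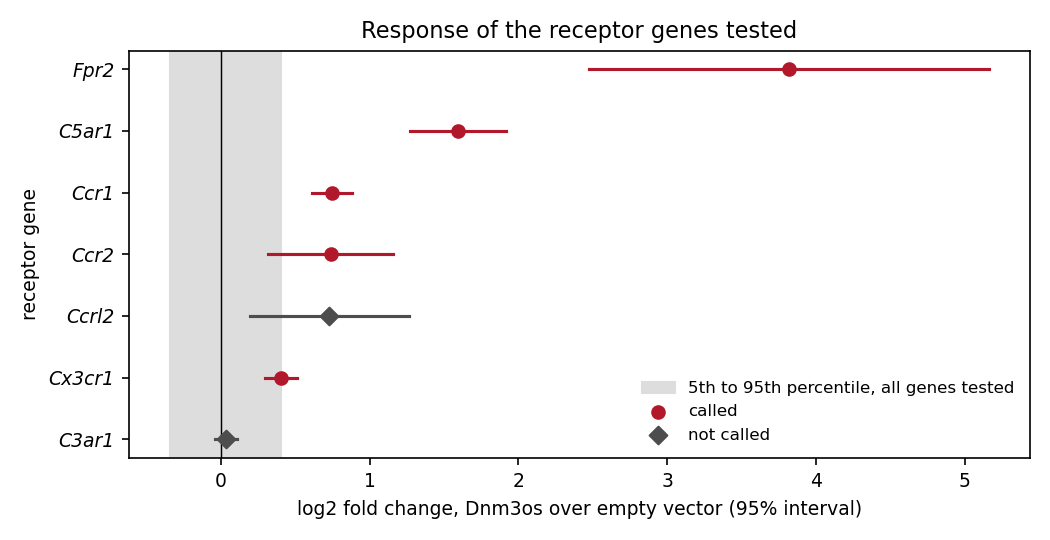
Log2 fold change (Dnm3os over empty vector) of the 7 receptor genes tested, as points with 95% intervals from the edgeR fit, in red circles where called and grey diamonds where not; the grey band spans the 5th to 95th percentile of all genes tested, from -0.34 to 0.40. The points of Fpr2, C5ar1, Ccr1, Ccr2 and Ccrl2 lie to the right of the band, though the intervals of Ccr2 and Ccrl2 reach into it. The point of Cx3cr1 lies at the band's right edge, and that of C3ar1 lies near 0.

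Between genes, levels were compared as CPM per kilobase of transcript, with lengths from matching GENCODE transcripts. In the Dnm3os libraries the mean order was C3ar1 (24.1), Cx3cr1 (14.7), Ccr1 (13.9), C5ar1 (2.14), Ccr2 (0.813), Ccrl2 (0.608), Fpr2 (0.534), Fpr1 (0.167) and Cxcr4 (0.0807 CPM per kilobase). Of these neighbours only Ccrl2 and Fpr2 overlapped between libraries. In the empty vector libraries the order was C3ar1 (23.6), Cx3cr1 (11.1), Ccr1 (8.31), C5ar1 (0.715), Ccr2 (0.485), Ccrl2 (0.370), Cxcr4 (0.0860), Fpr1 (0.0510) and Fpr2 (0.0360 CPM per kilobase). There Cxcr4, Fpr1 and Fpr2 overlapped with each other, so their order is not resolved.

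The 9 genes together summed to 57.3 and 56.9 CPM per kilobase in the Dnm3os libraries, against 44.2 and 45.2 in the empty vector libraries. C3ar1 made up 42.3% and 42.2% of that sum with Dnm3os, against 52.1% and 53.2% with the empty vector. Ccr1 took 24.8% and 24.0% with Dnm3os, against 17.6% and 19.5% with the empty vector. Its share in each Dnm3os library was above its share in each empty vector library. The share of Cx3cr1 overlapped between the groups, at 25.8% and 25.8% with Dnm3os and 26.4% and 23.4% with the empty vector. Compared with all genes tested that have a length, C3ar1 stood above 72.8% of them in the Dnm3os libraries and 72.5% in the empty vector libraries, and C5ar1 above 21.9% and 12.6%.

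**Figure D3:**
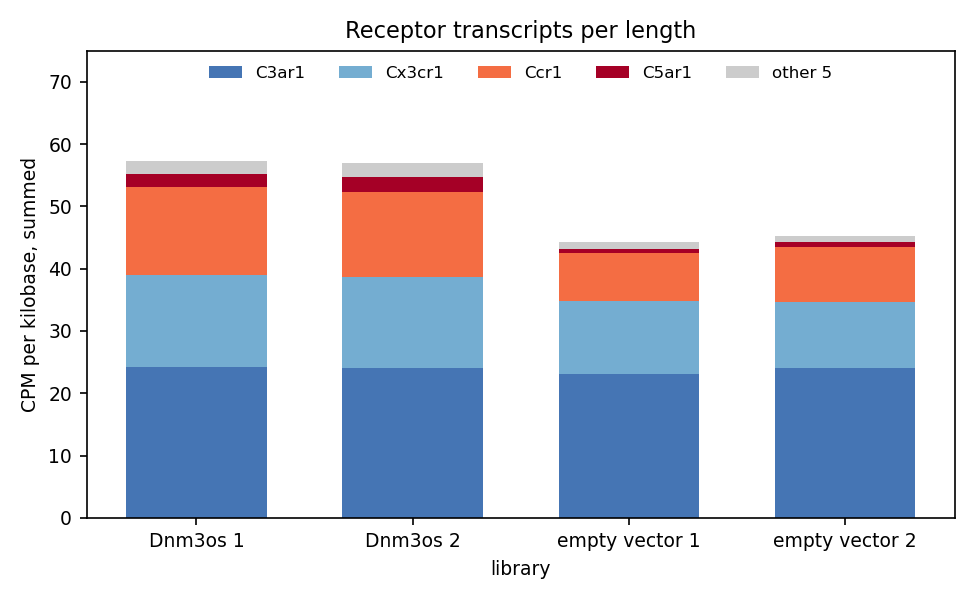
Summed level of the receptor genes in each library, in CPM per kilobase of transcript, with C3ar1, Cx3cr1, Ccr1, C5ar1 and the other 5 genes stacked. The sum is 57.3 and 56.9 in the Dnm3os libraries and 44.2 and 45.2 in the empty vector libraries, with the C3ar1 segment nearly level.

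The promoters were compared because several of the genes rose together. RefSeq (GRCm38.p6, a later build than the mm9 of the processing notes) gives 11 start sites for the 9 genes, and the 250 bases before each were searched on both strands for GAGGAA, the core bound by the myeloid factor PU.1, TGANTCA for AP-1, TTGCNNAA for C/EBP and GGGNNTTTCC for NF-kB. Windows of 3 genes held a match and are shown 5′ to 3′ on the gene's strand, with the matches in capitals. Ccr1 (chr9:123968693-123968942, minus strand) was called higher and holds the PU.1 core. Fpr2 (chr17:17887574-17887823, plus strand) holds it on the opposite strand, and its call is given as a description only. C3ar1 (chr6:122856158-122856407, minus strand) was not called and holds an AP-1 match followed after 1 base by an NF-kB match on the opposite strand.
Ccr1: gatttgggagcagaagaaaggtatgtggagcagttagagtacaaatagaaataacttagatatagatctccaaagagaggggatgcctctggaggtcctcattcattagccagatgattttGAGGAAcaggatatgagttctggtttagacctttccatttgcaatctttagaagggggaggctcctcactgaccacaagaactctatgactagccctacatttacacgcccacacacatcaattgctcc
Fpr2: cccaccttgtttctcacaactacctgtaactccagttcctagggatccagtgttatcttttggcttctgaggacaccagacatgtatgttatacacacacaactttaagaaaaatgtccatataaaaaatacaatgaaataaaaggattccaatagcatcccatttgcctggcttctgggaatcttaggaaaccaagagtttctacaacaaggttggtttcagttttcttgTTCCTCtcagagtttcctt
C3ar1: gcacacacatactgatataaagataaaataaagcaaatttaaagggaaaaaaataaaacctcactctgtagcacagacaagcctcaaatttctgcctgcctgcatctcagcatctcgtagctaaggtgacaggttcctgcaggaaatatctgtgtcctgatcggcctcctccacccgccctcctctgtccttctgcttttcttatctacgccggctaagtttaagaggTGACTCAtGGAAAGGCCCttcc

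The PU.1 core stood in 2 of the 11 windows, and in 23.3% of the 32851 windows of all genes. The AP-1 motif stood in 1 of 11 and in 6.75% of all windows, the NF-kB motif in 1 of 11 and in 1.41%, and the C/EBP motif in 0 of 11 and in 9.56%. The windows of C5ar1, Ccr2 and Cx3cr1, the other genes called higher, held none of the 4. In the same annotation Ccr1, Ccr2, Ccrl2 and Cx3cr1 are on chromosome 9. Ccr1 and Ccr2 lie in one cluster, with Ccr1l1 and Ccr3 between them. Of these neighbours Ccr3 averaged 5.88 ± 0.188 CPM with Dnm3os and 5.77 ± 0.926 CPM with the empty vector (SD, n = 2 each) and was not called (0.033 ± 0.12 SE; adjusted p = 0.925 by edgeR).

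The genes nearest to Ccr1, the receptor called with the smallest adjusted p, were Cd200r1, Fcgr2b and Metrnl. Nearness was the Euclidean distance between log2 CPM centred over the 4 libraries, among genes with a mean of at least 5 CPM, and was 0.0176, 0.0665 and 0.0698. Cd200r1, an inhibitory receptor, had 12.4 and 11.9 CPM with Dnm3os, against 6.87 and 7.76 CPM with the empty vector. Fcgr2b, an inhibitory immunoglobulin receptor, had 33.6 and 34.0 CPM with Dnm3os, against 18.5 and 20.7 CPM with the empty vector. Metrnl, a secreted protein, had 38.6 and 37.5 CPM with Dnm3os, against 20.9 and 25.4 CPM with the empty vector. Since these genes were chosen on the same 4 libraries, their likeness to Ccr1 is a description.

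The ligands of these receptors had 4 genes called higher and 0 lower among 12 tested, beside 6.51% higher and 5.75% lower over all genes tested (median log2 fold change 0.25, against 0.00061 over all genes). DESeq2 and limma-voom likewise called 0 lower, and without adjustment edgeR had 0 lower at p under 0.05. Ccl2 and Ccl7, ligands of Ccr2, rose with log2 fold changes of 0.73 ± 0.03 SE (adjusted p = 3.27e-13 by edgeR) and 1.16 ± 0.12 SE (adjusted p = 3.55e-07). Ccl7 had 7.56 ± 0.361 CPM with Dnm3os and 3.40 ± 0.234 CPM with the empty vector (SD, n = 2 each). Ccl9, a ligand of Ccr1 in the mouse, rose by a log2 fold change of 0.45 ± 0.03 SE (adjusted p = 4.95e-11 by edgeR). Ccl3 and Ccl5, further ligands of Ccr1, were not called (0.17 ± 0.10 SE, adjusted p = 0.487, and 0.28 ± 0.14 SE, adjusted p = 0.251, by edgeR). Ccl6, another mouse ligand of Ccr1, was called at low counts (0.86 ± 0.27 SE; adjusted p = 0.0372 by edgeR), with 100 counts over the Dnm3os group and 65 over the empty vector group, but in only 1 of the 4 fits that leave out a library, the one without empty vector library 2, and not by DESeq2 (adjusted p = 0.346) or limma-voom (0.0757).

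Ligand genes of the other receptors ranged from no reads to high levels. Cx3cl1, the ligand of Cx3cr1, and Cxcl12, the ligand of Cxcr4, had 0 counts in all 4 libraries, which allows a level of up to 0.0216 CPM. Mif, which also binds Cxcr4, averaged 463 ± 0.551 CPM with Dnm3os and 455 ± 20.8 CPM with the empty vector (SD, n = 2 each) and was not called (adjusted p = 0.721 by edgeR). Hc, which encodes complement C5, the source of C5a, had 1 count in the Dnm3os group and 0 in the empty vector group. C3, the source of C3a, averaged 8.96 ± 2.10 CPM with Dnm3os and 9.93 ± 0.279 CPM with the empty vector and was not called (adjusted p = 0.595 by edgeR). Rarres2, which encodes chemerin, averaged 2.44 ± 0.181 CPM with Dnm3os and 2.91 ± 0.146 CPM with the empty vector and was not called (adjusted p = 0.414 by edgeR). Anxa1, which encodes annexin A1, averaged 387 ± 11.1 CPM with Dnm3os and 398 ± 12.5 CPM with the empty vector, and was not called either (adjusted p = 0.550 by edgeR).

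Of 28 other chemoattractant receptors matched, 11 could be tested, of which 2 were called higher and 1 lower, beside 6.51% higher and 5.75% lower over all genes tested (median -0.021), and 9 had 0 counts in all libraries. Cxcr3, a receptor of interferon-induced chemokines, fell to 23.6 ± 0.567 CPM with Dnm3os, against 33.2 ± 0.210 CPM with the empty vector (SD, n = 2 each; log2 fold change -0.49 ± 0.06 SE; adjusted p = 2.65e-06 by edgeR). Ptafr, the receptor of platelet-activating factor, rose by a log2 fold change of 0.37 ± 0.09 SE (adjusted p = 0.00530 by edgeR), and was lost without Dnm3os library 2 (adjusted p = 0.0899) and by DESeq2 (adjusted p = 0.109). Cxcr2, known from neutrophils as a receptor of Cxcl1 and Cxcl2, was called at the edge of the threshold (0.21 ± 0.07 SE; adjusted p = 0.0469 by edgeR) and in none of the 4 fits that leave out a library (0.0518 to 0.295).

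Of the 26 genes of the signalling machinery below the receptors, 6 were higher, 5 were lower and 15 were not called, beside 6.51% higher and 5.75% lower over all genes tested (median log2 fold change 0.058). The largest difference among those called was in Plcb2, a phospholipase C beta, which had 169 counts over the Dnm3os group and 94 over the empty vector group (1.09 ± 0.20 SE; adjusted p = 0.000576 by edgeR). Rac2, a phagocyte GTPase, rose (0.27 ± 0.03 SE; adjusted p = 8.78e-07 by edgeR). Pik3r5, a regulatory subunit of phosphoinositide 3-kinase gamma, fell (-0.25 ± 0.03 SE; adjusted p = 7.68e-06 by edgeR), and so did Fgr, a Src family kinase (-0.29 ± 0.04 SE; adjusted p = 5.61e-05). Without Dnm3os library 2, 4 genes of this list were higher and 3 lower.

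Among 13 tested genes that switch the receptors off, 2 were higher, 1 was lower and 10 were not called, beside 6.51% higher and 5.75% lower over all genes tested (median 0.14). Rgs16 and Rgs2 both speed up the inactivation of G proteins. Rgs16 fell (-0.42 ± 0.05 SE; adjusted p = 2.12e-06 by edgeR), whereas Rgs2 rose (0.30 ± 0.04 SE; adjusted p = 1.21e-05). Arrb2, which encodes beta-arrestin 2, rose by a log2 fold change of 0.15 ± 0.03 SE (adjusted p = 0.00265 by edgeR), a call lost without Dnm3os library 2 (adjusted p = 0.0802).

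**Figure D4:**
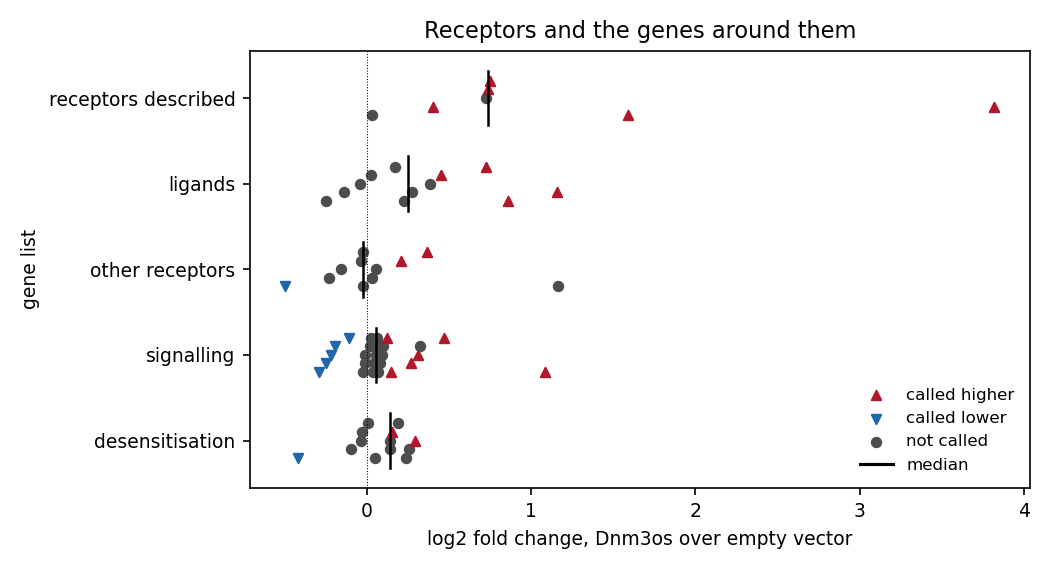
Log2 fold change (Dnm3os over empty vector) of each tested gene in 5 lists, with upward triangles for genes called higher, downward triangles for genes called lower, circles for genes not called and a bar at the list's median. The medians are 0.74 for the receptors described, 0.25 for their ligands, -0.021 for other receptors, 0.058 for signalling and 0.14 for desensitisation.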

How the data were processed

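Poly(A) RNA libraries were made with TruSeq reagents and run on a HiSeq 2500, per the labels' protocols. TopHat, Bowtie2, DESeq2 and the build mm9 are named in the submitters' processing notes, without versions or roles; the setting for strand, like the read counter and annotation, is not given in the sources used here. The deposited raw column holds whole-number counts for 35786 RefSeq transcripts. The normalized column deposited by the authors is a scaled signal, the count times 1 constant per library (0.865 to 1.17), and was used for nothing but 1 alternative scaling.

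RefSeq's gene table named 35499 transcripts and GENCODE's another 178. The 109 left unnamed, with 0.246 to 0.276% of the counts, stayed as features of their own, except 45S ribosomal RNA, which was removed. A gene with several transcripts is represented by the one with most reads on average. After filterByExpr and TMM scaling (factors 0.997 to 1.003), edgeR 4.0.16 in R 4.3.3 was used (glmQLFit, robust, and glmQLFTest), two-sided; p-values were adjusted by Benjamini-Hochberg over all 13172 genes tested. The SE was taken as the log2 fold change's size divided by the square root of the F statistic. Alternatives are DESeq2 1.42.0 and voom from limma 3.58.1, other scalings and filters, summed isoforms, a replicate block and each library left out; where 1 library of a group is left, it is assumed to vary like those of the other group. Libraries of a group differed by more than counting noise (chi-square per degree of freedom of 4.96 for the Dnm3os pair and 6.23 for the empty vector pair).

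The members, gene lists and tests were chosen with earlier results of these data known. Named genes are all 9 receptors, Dnm3os, up to 4 called genes per pathway list with the smallest adjusted p (1 of them is not reported here), and the 3 genes nearest to the top receptor in each direction; 0 receptors were lower. Ccr3, C5ar2, Cx3cl1, Cxcl12, Hc, C3, Rarres2, Anxa1, Saa3, Mif, Ccl3, Ccl5, Plcb2 and single marker genes were named after their values were seen. The list gene Fpr-rs7 found no match.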

Additional observations from a re-analysis of the deposited data

How the results depend on the processing

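C5ar1, Ccr1 and Cx3cr1 were called in all 14 alternatives, Ccr2 in 10 and Ccrl2 in 1. With all libraries kept, receptors called higher numbered 4 to 6, beside 404 to 1054 genes called higher over all genes tested. This count is a description, since it includes Fpr2 in every such setting but the filter at 1 CPM in 2 libraries. The 6 was reached only with isoforms summed, through Ccrl2, whose transcripts hold overlapping counts. The estimate of C3ar1, never called, was between -0.0026 (without empty vector library 1) and 0.065 with a library left out. Over all genes, DESeq2 called 404 higher and 362 lower, and leaving out 1 library gave 465 to 808 higher and 396 to 786 lower (492 and 455 without Dnm3os library 1, 465 and 396 without Dnm3os library 2). Of the other receptors, 1 was called higher with upper-quartile factors, limma-voom or isoforms summed, 0 by DESeq2, and 0 to 1 with a library left out. Signalling genes called lower numbered 3 to 4 with a library left out. The cause was not tested. Same-numbered libraries share only a number; with a replicate block, 868 genes were higher, 782 lower and 5 receptors higher. Their deviations correlated at -0.21 over 9979 genes, and a crossed pairing, chosen after seeing the data, called 1054 higher and 945 lower. Scaling moved the median of all genes by less than 0.1 log2. Depth limits Cxcr4, Fpr1, Fpr2, Ccrl2 and Ccr2, with at most 81 counts in any library.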
